A study of Rattus norvegicus with 30 samples.

Results

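The enzymes of methionine, homocysteine and choline metabolism were followed in rat hepatocytes exposed to methapyrilene, an antihistamine withdrawn after it caused liver tumours in rats. The members were named by gene: Bhmt, Bhmt2, Mat1a, Mat2a, Gnmt, Pemt, Ahcy, Cbs, Cth and Chdh. They are 10 of the 14217 genes that have a probe set of their own on the array and hold 12 of the 20826 such probe sets. A gene with several probe sets was represented by the one whose mean over the 30 arrays was highest. Mat2a was the one member with over 1 probe set, and its other 2 served as a check. The cultures were purchased frozen hepatocytes of male Sprague Dawley rats, plated under a Matrigel overlay and dosed on day 3. They received 3 uM or 100 uM methapyrilene HCl, or DMSO as the vehicle, and RNA was taken after 24 or 48 h, with 5 wells for each of the 6 groups. The labels give 1% DMSO, but the protocol uses that figure for the concentrated dosing solutions, so the final share in the medium is uncertain. The age of the animals, and whether a vial held the cells of 1 animal or several, are not given in the sources used here. The 5 arrays of a group are separate wells described as independent cultures, so p-values measure the spread between wells. Such cultures lack the blood flow and bile outflow of a liver.

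Methionine is activated to S-adenosylmethionine, the cell's methyl donor, by methionine adenosyltransferase, whose catalytic subunit is Mat1a in adult liver and Mat2a in most other tissues. Methyltransferases such as Gnmt and Pemt turn the donor into S-adenosylhomocysteine, which Ahcy splits to homocysteine. In the liver, homocysteine is remethylated with betaine by Bhmt, remethylated with folate by methionine synthase, or passed through Cbs and Cth to cysteine, while Chdh starts the conversion of choline to betaine.

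The promoters of 4 members are printed because the results turn on these genes. Bhmt and Gnmt were the members lowest in rank at 100 uM and 48 h, and Mat1a and Mat2a encode alternative subunits of the same enzyme. The sequences are from RefSeq's table on build GRCr8 and run 5′ to 3′ on the gene's strand from 250 bases before to 50 bases after the annotated start. Capitals mark TATAAA or CCAAT on either strand (ATTGG is CCAAT on the other strand). The Bhmt window is chr2:26614380-26614679 on the minus strand, the Gnmt window is chr9:21752032-21752331 on the plus strand, the Mat1a window is chr16:17016918-17017217 on the plus strand and the Mat2a window is chr4:106053563-106053862 on the minus strand.
Bhmt: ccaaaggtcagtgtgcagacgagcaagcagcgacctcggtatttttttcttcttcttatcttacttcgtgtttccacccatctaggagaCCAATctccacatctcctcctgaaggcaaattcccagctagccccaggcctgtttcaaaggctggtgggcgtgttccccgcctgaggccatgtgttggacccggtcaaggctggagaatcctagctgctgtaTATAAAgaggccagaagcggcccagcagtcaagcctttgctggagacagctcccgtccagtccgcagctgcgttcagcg
Gnmt: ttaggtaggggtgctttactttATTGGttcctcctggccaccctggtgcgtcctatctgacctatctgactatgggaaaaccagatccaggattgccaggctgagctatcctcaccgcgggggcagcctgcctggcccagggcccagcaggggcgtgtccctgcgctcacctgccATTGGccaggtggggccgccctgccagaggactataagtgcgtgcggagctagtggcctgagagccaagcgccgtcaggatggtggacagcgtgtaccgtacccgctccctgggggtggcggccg
Mat1a: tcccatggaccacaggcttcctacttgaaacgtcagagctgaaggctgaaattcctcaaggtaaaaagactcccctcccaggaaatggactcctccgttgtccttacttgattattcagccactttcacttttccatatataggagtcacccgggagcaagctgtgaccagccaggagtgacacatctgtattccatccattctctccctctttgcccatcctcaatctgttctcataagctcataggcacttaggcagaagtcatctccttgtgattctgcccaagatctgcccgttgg
Mat2a: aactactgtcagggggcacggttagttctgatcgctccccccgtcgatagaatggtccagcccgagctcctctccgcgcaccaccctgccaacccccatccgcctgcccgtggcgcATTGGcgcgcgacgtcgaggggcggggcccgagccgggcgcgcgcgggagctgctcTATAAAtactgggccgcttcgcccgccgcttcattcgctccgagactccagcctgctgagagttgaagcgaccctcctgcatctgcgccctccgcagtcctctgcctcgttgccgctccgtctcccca
Counted from the start, TATAAA began at base -29 in Bhmt and at base -78 in Mat2a. CCAAT or its complement began at base -161 in Bhmt, at base -134 in Mat2a and at bases -228 and -75 in Gnmt. Mat1a held neither in this window. Of the 9 members with an entry in the table, TATAAA was found in 2, while 14.2% of all 33469 promoters of the same length hold it. CCAAT was found in 6 of these 9 members (Bhmt, Cbs, Cth, Gnmt, Mat2a and Pemt) and in 37.5% of all promoters. CACGTG occurred in 1 member, Cth, and in 6.42% of all promoters, TGATGNAA in 0 members and 3.98% of all promoters, and CAAAGTCCA in 0 members and 0.391% of all promoters. These matches describe letters in a window and not binding sites.

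The deposited values are MAS5 signals, the array maker's summary of the probes of a probe set on a linear scale. After the authors' scaling, array medians lay between 362 and 471. Of the hepatocyte markers, 9 of 10 had a probe set of their own and all 9 passed the filter on low values, with albumin at a mean signal of 82488. Markers of other liver cells were also measured, and 5 of 7 Kupffer cell and leukocyte markers, 4 of 8 stellate cell and fibroblast markers, 2 of 5 cholangiocyte markers and 1 of 5 endothelial markers passed that filter. Cd163 and Ptprc, Col1a2 and Pdgfrb, Krt7, and Pecam1 and Stab2 were among those below it. Replicates 1, 2 and 3 of 3 uM at 24 h stand apart from the other arrays in the beta-actin control. Their ratio of the 3′ to the 5′ beta-actin control probe set, a measure of shortened RNA or labelled copy, was 3.93 to 5.30, against 2.34 to 3.43 in the other 27 arrays. All 10 members passed the filter. Pemt exceeded the array median on 29 arrays and the others on all 30.

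At 100 uM the enzymes of this pathway were mostly lower than in DMSO wells at both times. A gene is called here at an adjusted p under 0.05 in limma. At 24 h, 7 of the 10 members were lower and 0 were higher, where 15.8% of the 10222 genes tested were lower and 19.9% higher. At 48 h, 8 of 10 were lower and 0 were higher, where 14.5% of all genes were lower and 18.9% higher. The members were chosen with earlier results of these data known, so these counts are a description. The median log2 fold change of the 10 members was -0.75 at 24 h and -0.88 at 48 h, while that of all genes tested was 0.043 at 24 h and 0.049 at 48 h. Fewer surviving hepatocytes and less RNA of a gene per hepatocyte cannot be told apart in these bulk samples. The summed signal of the 9 hepatocyte markers overlapped between the groups, at 440843 to 548398 in 100 uM wells against 458695 to 566373 in DMSO wells at 24 h. At 48 h it was 410974 to 459870 in 100 uM wells against 445461 to 524776 in DMSO wells. Of these 9 markers, 4 were lower at 100 uM at 24 h and 2 at 48 h, with median log2 fold changes of -0.052 and -0.11. The 7 measured Kupffer cell and leukocyte markers summed to 16101 to 17723 in 100 uM wells against 19165 to 23039 in DMSO wells at 24 h. At 48 h their sum was 13203 to 16626 in 100 uM wells against 18607 to 21671 in DMSO wells. Most of that sum came from Cd14 and Lyz2, which were lower, with log2 fold changes at 24 and 48 h of -0.68 ± 0.096 and -1.05 ± 0.096 for Cd14 and of -0.29 ± 0.080 and -0.21 ± 0.080 for Lyz2. Cd68, a lysosomal protein of macrophages, was higher, at 1362 to 1799 in 100 uM wells against 795 to 1001 in DMSO wells at 24 h (log2 fold change 0.86 ± 0.12, adjusted p = 7.41e-07). Cd68 at 48 h was 2015 to 2573 in 100 uM wells against 655 to 920 in DMSO wells (log2 fold change 1.65 ± 0.12, adjusted p = 7.21e-13). Clec4f and Csf1r were not called at either time. The part of such cells in the results was not tested. The sum of the 5 measured cholangiocyte markers was 11042 to 12038 in 100 uM wells against 9829 to 10939 in DMSO wells at 24 h, and 11158 to 12157 against 12570 to 13609 at 48 h, nearly all of it from Epcam. The 8 stellate cell and fibroblast markers summed to 3255 to 3863 in 100 uM wells against 3004 to 3474 in DMSO wells at 24 h, and to 3051 to 4194 against 2922 to 3414 at 48 h, which overlap. The 5 measured endothelial markers summed to 913 to 1508 in 100 uM wells against 864 to 1391 in DMSO wells at 24 h, and to 1037 to 1483 against 807 to 1202 at 48 h, which also overlap.

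**Figure D1:**
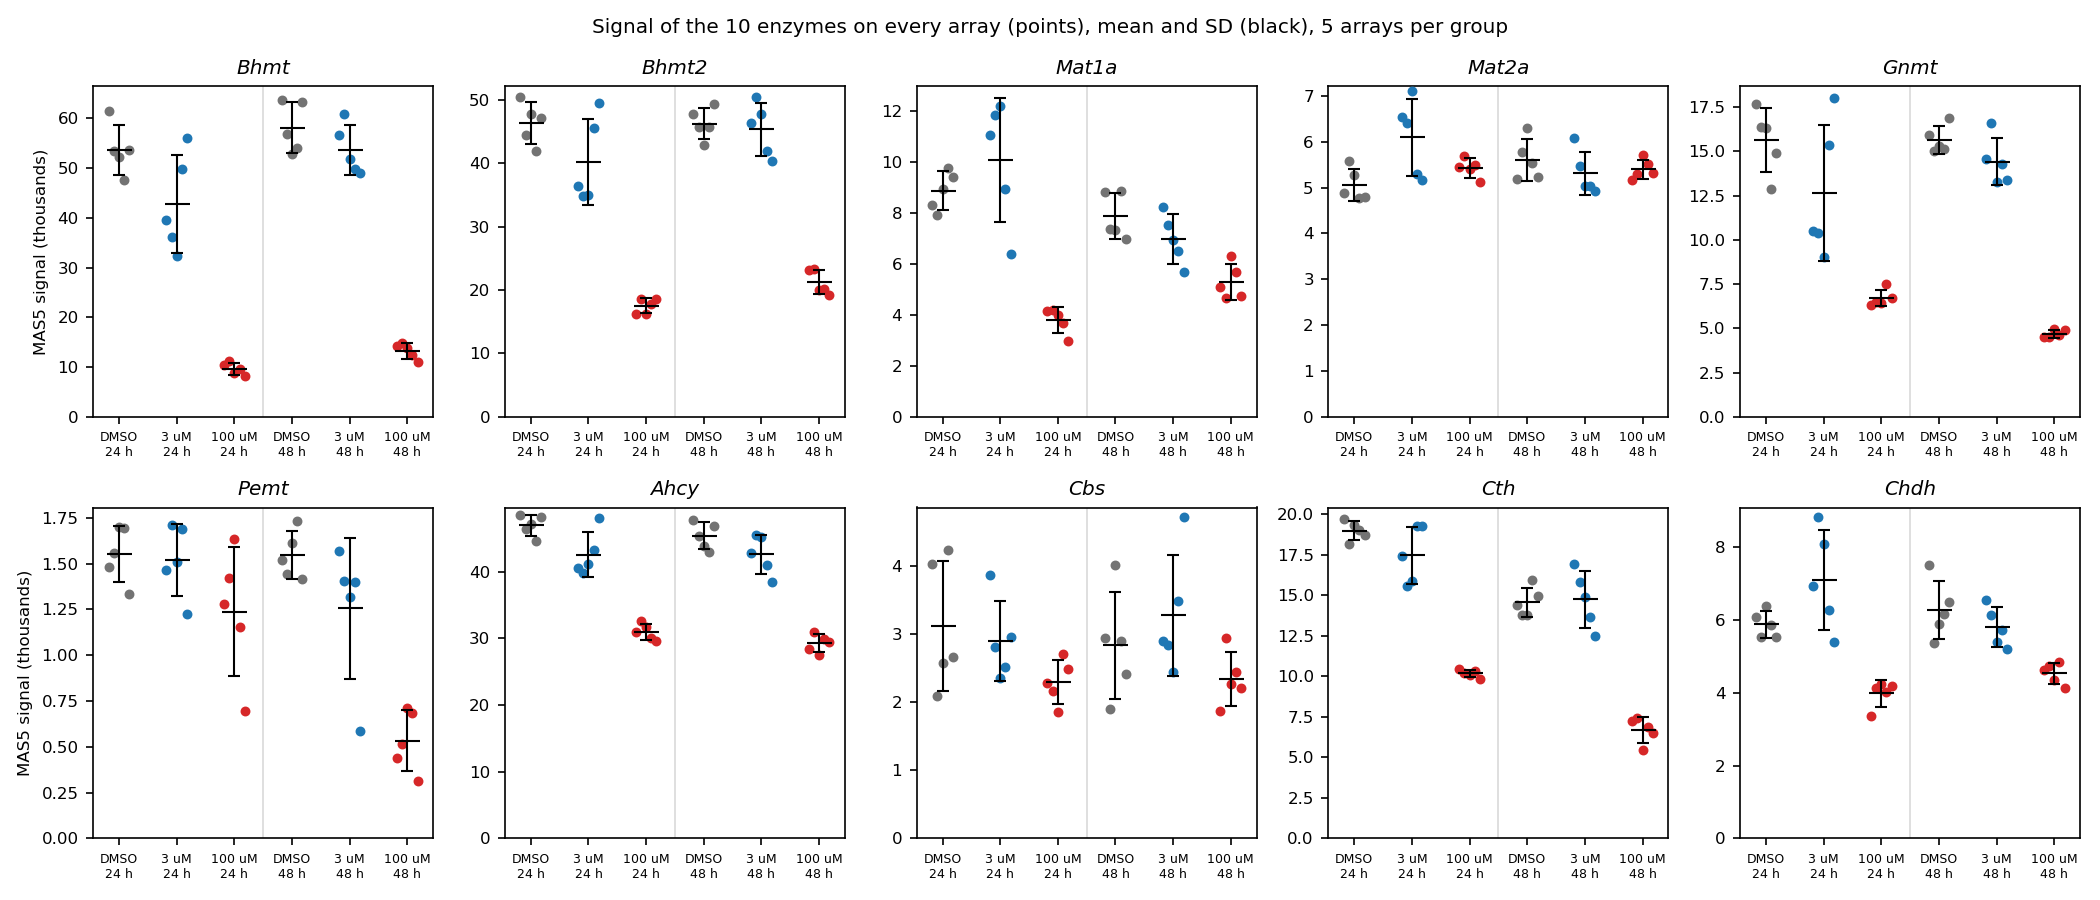
MAS5 signal (y axis, from 0) of each of the 10 enzymes in the 6 groups (x axis), with 1 point per array and black bars for the mean and SD of 5 arrays. The 100 uM arrays of Bhmt, Bhmt2, Mat1a, Gnmt, Ahcy, Cth and Chdh lie below all DMSO arrays at both times, and Mat2a differs little between groups.

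Bhmt, which moves a methyl group from betaine to homocysteine, had the lowest fold change of the members. At 24 h its signals were 10401, 11173, 8810.3, 9654 and 8253 in 100 uM wells, against 61437, 53327, 52305, 47566 and 53547 in DMSO wells. At 48 h they were 14278, 14821, 13920.1, 12339.7 and 11008 in 100 uM wells, against 63699, 56876, 52775, 54060.1 and 63157 in DMSO wells. Every 100 uM array lay far below every DMSO array, with no overlap at either time. The log2 fold change ± SE was -2.48 ± 0.11 at 24 h (adjusted p = 2.91e-18), a signal 5.57-fold lower and rank 5 from the lowest among the 10222 genes. At 48 h it was -2.13 ± 0.11 (adjusted p = 7.18e-17), 4.39-fold lower and rank 12 from the lowest.

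Bhmt2, a relative of Bhmt that uses S-methylmethionine as its methyl donor, lies beside it on chromosome 2. In GRCr8, Bhmt spans chr2:26594852-26614429 and Bhmt2 spans chr2:26630502-26647450. Bhmt2 signals at 24 h were 16307, 18653, 16284, 17885 and 18668 in 100 uM wells, against 50519.9, 44512, 47745, 41938 and 47109 in DMSO wells. After 48 h the signals were 23215, 23399, 20085, 20248 and 19262 in 100 uM wells, against 47834, 45715, 42924, 45685 and 49335 in DMSO wells. The groups did not overlap at either time. The fit gave a log2 fold change of -1.40 ± 0.083 at 24 h (adjusted p = 3.87e-15) and -1.13 ± 0.083 at 48 h (adjusted p = 6.27e-13). Within each array, the log2 ratio of Bhmt to Bhmt2 relative to the DMSO mean of its time was -1.39 to -0.86 in 100 uM wells against -0.077 to 0.074 in DMSO wells at 24 h. At 48 h it was -1.13 to -0.85 in 100 uM wells against -0.082 to 0.088 in DMSO wells. Both probe sets were thus lower at 100 uM, by unequal amounts, and whether either reads RNA of the neighbouring gene was not tested.

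The order of the group means differed slightly between this pair. For Bhmt the lowest mean was that of 100 uM at 24 h, 9658 ± 1177 (SD, n = 5 in this and every group), followed by 100 uM at 48 h, 13274 ± 1567, with overlapping ranges. The next mean up, that of 3 uM at 24 h (42756 ± 9863), did not overlap with them, and it and the 3 groups above it overlapped each with the next. For Bhmt2, 100 uM at 24 h (17559.5 ± 1196) and 100 uM at 48 h (21242 ± 1923) did not overlap with each other or with the groups above, whose means ran from 40296 to 46365 and overlapped each with the next.

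Mat1a and Mat2a, the liver and non-liver subunits of methionine adenosyltransferase, fell on opposite sides of the test at 100 uM, Mat1a being called lower at both times and Mat2a at neither. Mat1a signals at 24 h were 4132, 4178, 4004, 3668 and 2974 in 100 uM wells, against 8313, 7924, 8932, 9766 and 9402 in DMSO wells. The 48 h signals were 5082, 4647, 6301, 5661 and 4722 in 100 uM wells, against 8797, 7379, 7336, 8854 and 6965 in DMSO wells. The groups did not overlap at either time, with a gap that was narrower at 48 h. In limma the log2 fold change was -1.23 ± 0.13 at 24 h (adjusted p = 2.00e-09) and -0.58 ± 0.13 at 48 h (adjusted p = 0.000571). The signal of 48 h was 1.49-fold lower, and that call does not pass a threshold that also asks for a 1.5-fold change. The order of its means was 100 uM at 24 h, 100 uM at 48 h, 3 uM at 48 h, DMSO at 48 h, DMSO at 24 h and 3 uM at 24 h, and only the lowest did not overlap with the next.

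Mat2a signals at 24 h were 5439, 5692, 5396, 5493 and 5114 in 100 uM wells, against 4889, 5571, 5280.4, 4775 and 4784 in DMSO wells. At 48 h they were 5173, 5293, 5703, 5509 and 5316 in 100 uM wells, against 5182, 5765, 6291, 5539 and 5234 in DMSO wells. The groups overlapped at both times. This amounted to a log2 fold change of 0.10 ± 0.075 at 24 h, with a 95% interval of -0.049 to 0.25 (adjusted p = 0.311). At 48 h it was -0.050 ± 0.075, with an interval of -0.20 to 0.10 (adjusted p = 0.659). The second Mat2a probe set gave 0.25 ± 0.16 at 24 h (adjusted p = 0.251) and 0.12 ± 0.16 at 48 h (adjusted p = 0.610), so the sign at 48 h depends on the probe set and no probe set passed the test. All 6 group means of Mat2a overlapped with the next in order, from 5060 in DMSO wells at 24 h to 6098 in 3 uM wells at 24 h.

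Within each array, the log2 ratio of Mat1a to Mat2a relative to the DMSO mean of its time was -1.59 to -1.20 in 100 uM wells against -0.30 to 0.22 in DMSO wells at 24 h. At 48 h it was -0.67 to -0.34 in 100 uM wells against -0.26 to 0.28 in DMSO wells. No array of 100 uM reached the DMSO range at either time. With the second Mat2a probe set the ratio was -1.77 to -1.13 in 100 uM wells against -0.22 to 0.40 in DMSO wells at 24 h, and -1.01 to -0.47 against -0.086 to 0.24 at 48 h. These ratios are given as a description, without a test. Mat2b, the regulatory subunit that binds the Mat2a protein, rose at 100 uM, with a log2 fold change of 0.35 ± 0.058 at 24 h (adjusted p = 1.03e-05) and 0.23 ± 0.058 at 48 h (adjusted p = 0.00196).

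Gnmt, which methylates glycine and is the main consumer of surplus S-adenosylmethionine in liver, was lower at both times. Its signals at 24 h were 6342, 6503, 6429.9, 7477 and 6739 in 100 uM wells, against 17685, 16344, 16321, 12891 and 14909.7 in DMSO wells. After 48 h the signals were 4484, 4519.9, 4949, 4611 and 4911 in 100 uM wells, against 15907, 15020.2, 15274, 15124 and 16857 in DMSO wells. The 100 uM arrays lay within a narrow band at 48 h, below all those of 24 h. The log2 fold change was -1.22 ± 0.11 at 24 h (adjusted p = 2.19e-10) and -1.74 ± 0.11 at 48 h (adjusted p = 4.34e-14), 3.33-fold lower and rank 31 from the lowest among all genes. In the order of means, 100 uM at 48 h and 100 uM at 24 h overlapped with no other group, and the 4 groups of 3 uM and DMSO overlapped each with the next.

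Pemt, which makes phosphatidylcholine by methylating phosphatidylethanolamine, passed the test at 48 h and not at 24 h. At 24 h its signals were 1277, 1424, 1632, 1156 and 695 in 100 uM wells, against 1483, 1558, 1701, 1693 and 1335 in DMSO wells. The 48 h signals were 436, 517, 712, 685 and 314 in 100 uM wells, against 1518, 1445, 1613, 1735 and 1417 in DMSO wells. The groups overlapped at 24 h and were apart at 48 h, when every 100 uM array was below every DMSO array. The fit gave a log2 fold change of -0.38 ± 0.22 at 24 h, with a 95% interval of -0.82 to 0.059 (adjusted p = 0.181). At 48 h it was -1.60 ± 0.22 (adjusted p = 3.55e-07), 3.02-fold lower and rank 47 from the lowest.

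Pemt also had a pattern across the array numbers in the titles, which fall in 5 runs of 6, each with 1 array of every group. The array of run 5 was the lowest of its group for Pemt in 6 of 6 groups. At 24 h it was at 1335 in DMSO, 1223 in 3 uM and 695 in 100 uM wells, and at 48 h at 1417 in DMSO, 586 in 3 uM and 314 in 100 uM wells. For Mat1a the array of run 5 was the lowest in 4 of 6 groups, and no other member had 1 run lowest in 4 or more. This count was not made for all genes, so the pattern is not shown to be particular to Pemt. Within the runs, the log2 difference of Pemt between 100 uM and DMSO was -0.94 to -0.060 at 24 h and -2.17 to -1.18 at 48 h, below 0 in 5 of 5 runs at both times. With the run as a block in the fit, Pemt at 24 h kept its fold change of -0.38 and had an adjusted p of 0.0488.

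Ahcy, which splits S-adenosylhomocysteine, was lower at both times. Its signals at 24 h were 31005, 32554, 31671, 30129 and 29611 in 100 uM wells, against 48544, 46436, 47137, 44627 and 48267 in DMSO wells. At 48 h they were 28421, 30924, 27478, 29948 and 29509 in 100 uM wells, against 47833, 45399.6, 43919, 42886 and 46857 in DMSO wells. The groups did not overlap and the spread within each was small. In limma the log2 fold change was -0.60 ± 0.054 at 24 h (adjusted p = 7.53e-11) and -0.63 ± 0.054 at 48 h (adjusted p = 2.12e-11). The 2 means at 100 uM overlapped with each other, and the other 4, from 42569 to 47002, overlapped each with the next.

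Of the 2 enzymes that pass homocysteine on to cysteine, Cth passed the test and Cbs did not. Cth, which cleaves cystathionine, had signals of 10434, 10186, 10101, 10311 and 9839.9 in 100 uM wells at 24 h, against 19697, 18171, 19346, 18997 and 18698 in DMSO wells. After 48 h the signals were 7267, 7426, 5432, 6881 and 6506 in 100 uM wells, against 14414, 13749.9, 13796, 15926 and 14955 in DMSO wells. The 100 uM arrays lay below all DMSO arrays at both times. This amounted to a log2 fold change of -0.90 ± 0.076 at 24 h (adjusted p = 2.14e-11) and -1.13 ± 0.076 at 48 h (adjusted p = 7.91e-14). In the order of means, 100 uM at 48 h and 100 uM at 24 h overlapped with no other group.

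Cbs, which joins homocysteine to serine, had signals of 2279, 2163, 1847, 2701 and 2481 in 100 uM wells at 24 h, against 4029, 2093, 2575, 4224 and 2663 in DMSO wells. The 48 h signals were 1861, 2941, 2269, 2436 and 2203 in 100 uM wells, against 2937, 1902, 4012, 2892 and 2408 in DMSO wells. The DMSO wells spread widely and the groups overlapped at both times. The log2 fold change was -0.40 ± 0.19 at 24 h, with a 95% interval of -0.78 to -0.023 (adjusted p = 0.0925), and -0.25 ± 0.19 at 48 h, with an interval of -0.62 to 0.13 (adjusted p = 0.338). Without replicate 2 of DMSO at 24 h, the lowest DMSO array, the 24 h value was -0.53 with an adjusted p of 0.0274. The 6 group means ran from 2294 in 100 uM wells at 24 h to 3272 in 3 uM wells at 48 h and overlapped each with the next. The log2 ratio of Cbs to Cth within an array, relative to the DMSO mean of its time, was 0.44 to 1.15 in 100 uM wells at 48 h against -0.45 to 0.62 in DMSO wells, which overlap.

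Chdh, the mitochondrial enzyme that oxidises choline, had signals of 3349, 4130.1, 4250.3, 4009 and 4189 in 100 uM wells at 24 h, against 6082, 5521, 6388, 5875 and 5528 in DMSO wells. At 48 h they were 4617, 4736, 4357, 4851 and 4120.1 in 100 uM wells, against 7516, 5375, 5879, 6179 and 6489 in DMSO wells. The groups did not overlap at either time, and replicate 1 of 100 uM at 24 h was the lowest of all 30 arrays. The fit gave a log2 fold change of -0.56 ± 0.098 at 24 h (adjusted p = 2.10e-05) and -0.46 ± 0.098 at 48 h (adjusted p = 0.000302). These were 1.48-fold and 1.38-fold lower signals, so neither call passes a threshold that also asks for a 1.5-fold change. The 2 means at 100 uM overlapped with each other and not with the other 4 groups.

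**Figure D2:**
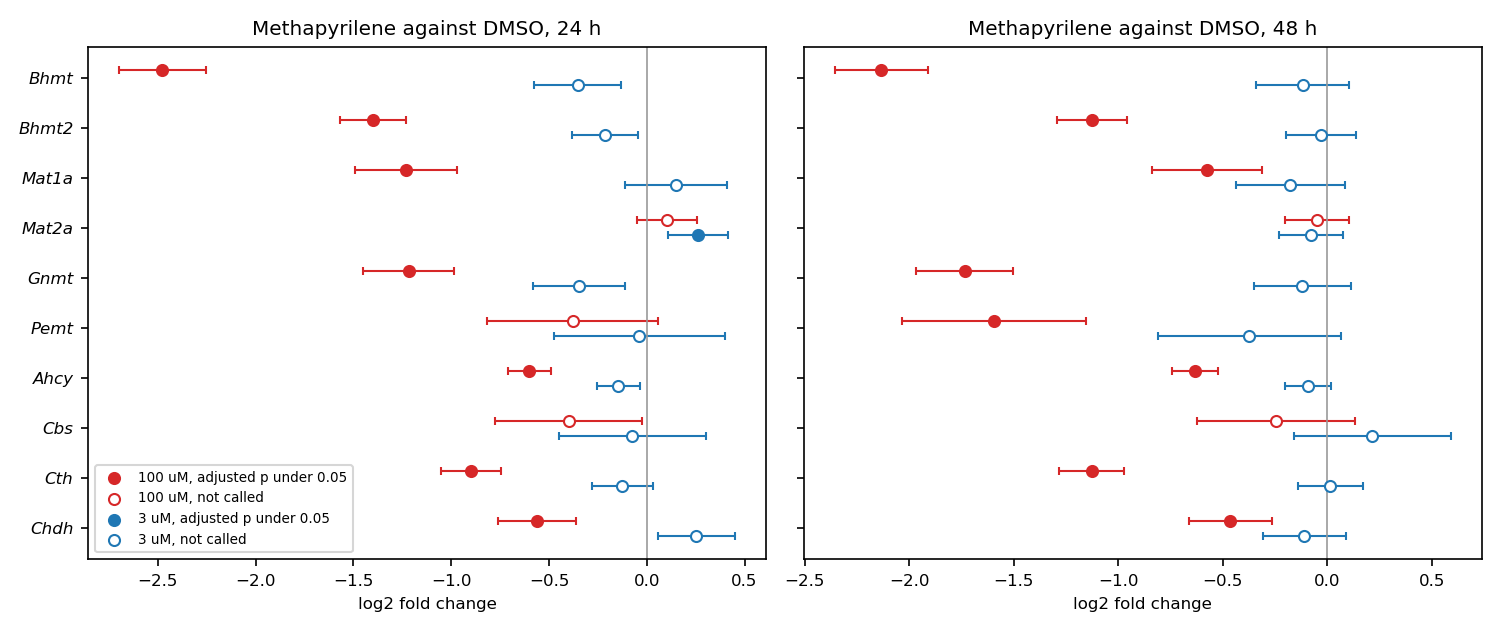
Log2 fold change of each enzyme (x axis) at 100 uM (red) and 3 uM (blue) methapyrilene against DMSO, at 24 h (left) and 48 h (right), with bars for the 95% interval from limma and filled points for an adjusted p under 0.05. The 100 uM points lie left of 0 for all members but Mat2a at 24 h, and the 3 uM points at 48 h all have intervals that include 0.

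At 3 uM, 1 member was called at 24 h and none at 48 h. For 8 members the 3 arrays that stand apart lay outside the DMSO range at 24 h, a count not made for all genes. At 24 h the called member was Mat2a, higher, where 4.22% of all genes were called in either direction, and 6 of 10 members had an unadjusted p under 0.05, as did 2252 of the 10222 genes tested. At 48 h limma called 0 of 10 members, where 0.0391% of all genes were called, and 0 of 10 had an unadjusted p under 0.05, against 521 of the 10222 genes tested. The 48 h values ran from -0.37 ± 0.22 for Pemt (adjusted p = 0.979) to 0.21 ± 0.19 for Cbs (adjusted p = 0.997). The 95% interval of Bhmt was -0.34 to 0.10, that of Mat1a -0.44 to 0.083 and that of Pemt -0.81 to 0.065. Replicate 5 of 3 uM at 48 h had a Pemt signal of 586, against 1320 to 1570 in the other 4 arrays of that group.

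At 24 h the 3 uM arrays of Bhmt were 39459, 36180.2, 32327, 49733 and 56082, against 47566 to 61437 in DMSO wells. Those of Gnmt were 10493, 10401, 9037, 15382 and 18010.5, against 12891 to 17685 in DMSO wells. For both, replicates 1, 2 and 3 were below all DMSO arrays and replicates 4 and 5 were within their range or above it. The log2 fold change over all 5 arrays was -0.35 ± 0.11 for Bhmt (adjusted p = 0.0570) and -0.35 ± 0.11 for Gnmt (adjusted p = 0.0718), neither of which was called. Both were called without replicate 4 or 5 of 3 uM at 24 h, with adjusted p from 0.00148 to 0.0140, and without replicate 4 of DMSO at 24 h, with adjusted p of 0.0498 and 0.0463. With replicates 4 and 5 alone, Gnmt was at 0.099.

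The 3 uM arrays of Mat1a at 24 h were 11039, 11825, 12183, 8920.1 and 6374, against 7924 to 9766 in DMSO wells. Those of Mat2a were 6545, 6407, 7095, 5285 and 5158, against 4775 to 5571 in DMSO wells, and those of Chdh 6943, 8821, 8081, 6276 and 5408, against 5521 to 6388 in DMSO wells. For these 3 genes, replicates 1, 2 and 3 were above all DMSO arrays. In limma the log2 fold change was 0.26 ± 0.075 for Mat2a (adjusted p = 0.0408), 0.25 ± 0.098 for Chdh (adjusted p = 0.121) and 0.15 ± 0.13 for Mat1a (adjusted p = 0.526). The Mat2a call did not hold in the second probe set, which gave -0.32 ± 0.16 (adjusted p = 0.234), and was lost without any 1 of replicates 1, 2 and 3 of 3 uM or replicates 1, 2, 4 and 5 of DMSO, with adjusted p from 0.0505 to 0.206. Within the runs of array numbers, Mat2a was above DMSO in 5 of 5 runs, by 0.11 to 0.43, and kept its call with the run as a block (adjusted p = 0.0277). Ahcy was below DMSO in 5 of 5 runs, by a log2 difference of -0.26 to -0.0048, and was not called with that block (adjusted p = 0.133). With replicates 4 and 5 alone, 0 of 10 members were called, and Mat1a was at -0.23 and Chdh at -0.011. That split was made with the other arrays of the group known to stand apart, so its values are a description. With the log2 beta-actin ratio as a covariate, 0 of 10 were called and Mat1a was at -0.10. The ratio was raised only in replicates 1, 2 and 3 of this group, so the covariate is partly confounded with the low dose.

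Over the 10 members, replicates 1, 2 and 3 of 3 uM at 24 h lay below all DMSO arrays for 5 (Bhmt, Bhmt2, Gnmt, Ahcy and Cth). They lay above all DMSO arrays for 3 and across them for 2 (Cbs and Pemt). The share of all genes for which these 3 arrays lay outside the DMSO range was not counted. The pattern is therefore not shown to be particular to these enzymes. As a pair, replicates 4 and 5 overlapped with the DMSO range for all 10, although replicate 5 alone was below it for Mat1a, Pemt and Chdh and above it for Gnmt, and replicate 4 alone was below it for Ahcy. The part of array quality in these values was not tested, since the raised beta-actin ratios occurred only in this group.

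**Figure D3:**
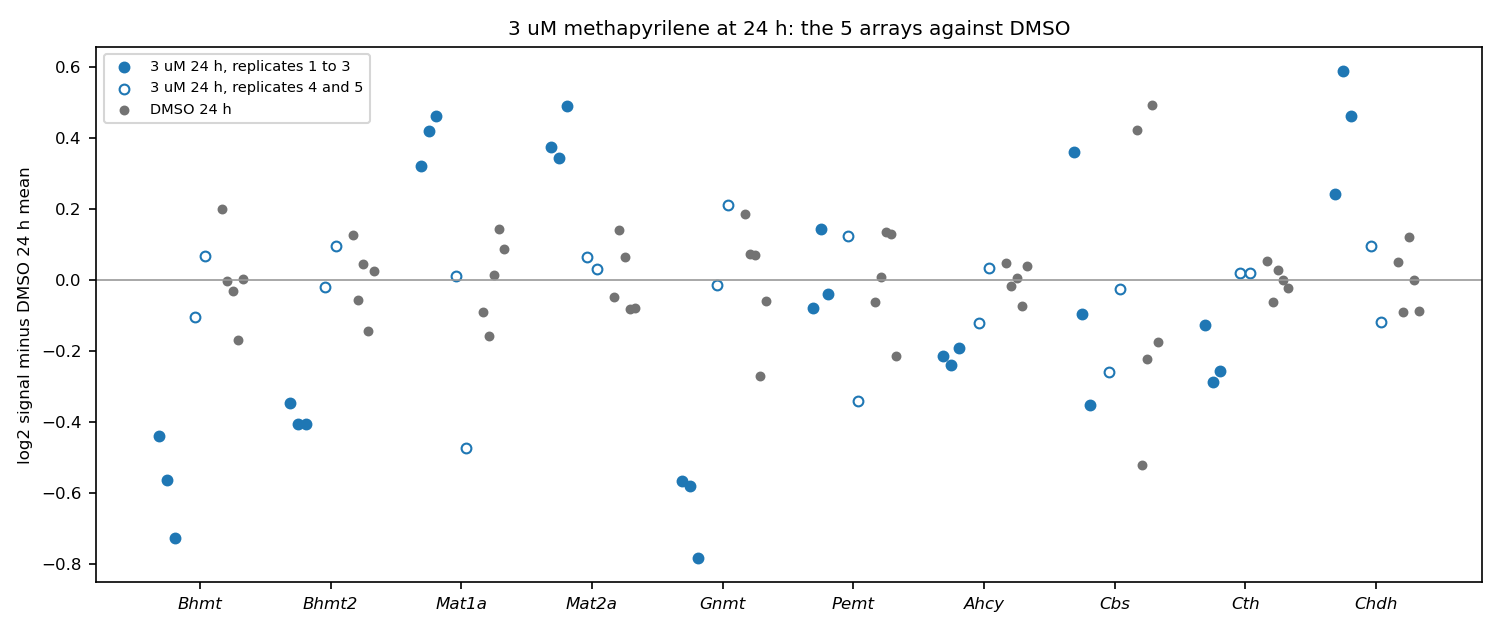
Log2 signal minus the mean of the DMSO arrays (y axis) for each enzyme (x axis) at 24 h, with filled blue points for replicates 1 to 3 of 3 uM, open blue points for replicates 4 and 5 and grey points for DMSO. The filled points of Bhmt, Bhmt2, Gnmt, Ahcy and Cth lie below all grey points and those of Mat1a, Mat2a and Chdh above them, while the pair of open points reaches into the range of the grey points for every enzyme.

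Set against 3 uM, the 100 uM wells were lower for 7 of 10 members at 24 h, where 19.1% of all genes were lower, and for 8 of 10 at 48 h, where 12.6% were lower. These comparisons share the 100 uM arrays with those against DMSO, so the calls are not independent of those. Bhmt was at -2.12 ± 0.11 at 24 h (adjusted p = 1.56e-16) and -2.02 ± 0.11 at 48 h (adjusted p = 5.74e-16). Mat1a was at -1.38 ± 0.13 at 24 h (adjusted p = 1.75e-10) and -0.40 ± 0.13 at 48 h (adjusted p = 0.0178). The Mat1a call at 48 h was lost without replicate 1 of 3 uM (adjusted p = 0.0650) or replicate 2 of 100 uM (adjusted p = 0.0512). Mat2a at 24 h had a sign that depended on the probe set, at -0.16 ± 0.075 (adjusted p = 0.0952) in the first and 0.57 ± 0.16 (adjusted p = 0.00477) in the second. Cbs at 48 h, not called, was called under 6 alternatives, among them quantile normalization (adjusted p = 0.0387) and without replicate 3 of 3 uM (adjusted p = 0.0303). Pemt at 48 h was at -1.22 ± 0.22 (adjusted p = 3.63e-05).

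Time in culture alone changed 1 member. Of the 10 members, Cth was lower in DMSO wells at 48 h than at 24 h by a log2 fold change of -0.38 ± 0.076 (adjusted p = 0.00135), with means of 14568 ± 906 at 48 h and 18982 ± 588 at 24 h, where 4.48% of all genes were called in either direction. The other 9 members were not called, with values from -0.18 ± 0.13 for Mat1a to 0.15 ± 0.075 for Mat2a. Between 100 uM wells at 48 h and at 24 h, 3 members were lower, where 4.45% of all genes were lower, and 3 were higher, where 5.03% were higher. Those lower at 48 h were Pemt at -1.22 ± 0.22 (adjusted p = 0.000158), Cth at -0.61 ± 0.076 (adjusted p = 5.06e-07) and Gnmt at -0.51 ± 0.11 (adjusted p = 0.00281). Those higher at 48 h were Mat1a at 0.48 ± 0.13 (adjusted p = 0.0131), Bhmt at 0.46 ± 0.11 (adjusted p = 0.00496) and Bhmt2 at 0.27 ± 0.083 (adjusted p = 0.0314). The Mat1a call was lost without replicate 3 of 100 uM at 48 h (adjusted p = 0.0517) or replicate 5 of 100 uM at 24 h (adjusted p = 0.0520). The Bhmt2 call was lost without replicate 1 or 2 of 100 uM at 48 h or replicate 1 or 3 of 100 uM at 24 h, with adjusted p from 0.0877 to 0.0973, and also with each array centred on its median (adjusted p = 0.151) or without a trend (adjusted p = 0.0551).

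Whether the effect of 100 uM differed between the times was tested as an interaction, in which 1 of 10 members and 1.66% of all genes were called. For Pemt the 48 h effect minus the 24 h effect was -1.22 ± 0.30 (adjusted p = 0.0292). With the array run as a block that call was kept (adjusted p = 0.00130), and without a trend it was lost (adjusted p = 0.0615). That call was lost without any 1 of 7 arrays (replicates 1, 2 and 3 of 100 uM at 24 h, replicates 1 and 5 of 100 uM at 48 h, replicate 4 of DMSO at 48 h and replicate 5 of DMSO at 24 h), with adjusted p from 0.0501 to 0.0716. Mat1a was at 0.66 ± 0.18 (adjusted p = 0.0562), so that its 48 h difference was smaller without passing the test, and Gnmt at -0.52 ± 0.16 (adjusted p = 0.121). Mat1a was called with the array run as a block (adjusted p = 0.0213), array weights (adjusted p = 0.00709) or only the groups compared (adjusted p = 0.00657). It was also called with all 30 arrays above their median (adjusted p = 0.0380) and without replicate 2 of 100 uM at 48 h (adjusted p = 0.0495). Gnmt was called with array weights (adjusted p = 0.00490) or only the groups compared (adjusted p = 0.00178). Neither gene was called under the other alternatives. For 3 uM the same test in limma called 0 of 10 members and 0% of all genes, with 2 members and 1256 of all genes at an unadjusted p under 0.05.

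At 100 uM several neighbouring steps of one-carbon metabolism also had more lower than higher calls. Among them were folate enzymes, betaine oxidation, other methyltransferases and cysteine oxidation. Over all genes, 15.8% were lower and 19.9% higher at 24 h, and 14.5% were lower and 18.9% higher at 48 h. The lists were chosen with earlier results of these data known, so their counts are a description. Of the 14 folate and methionine synthase genes tested, 9 fell and 1 rose at 24 h, and 9 fell and 0 rose at 48 h, with medians of -0.31 and -0.38. Ftcd, which breaks down histidine into the folate pool, was at -1.64 ± 0.10 at 24 h (adjusted p = 1.24e-14), with 6441 ± 692 in 100 uM wells and 20085 ± 2604 in DMSO wells, and at -1.98 ± 0.10 at 48 h. The glycine cleavage genes Gldc and Amt also fell, with log2 fold changes of -1.38 ± 0.12 and -1.07 ± 0.12 for Gldc and of -0.77 ± 0.079 and -0.87 ± 0.079 for Amt at 24 and 48 h. Aldh1l1, which releases one-carbon units from folate as carbon dioxide, was at -0.76 ± 0.073 and -0.78 ± 0.073.

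Of the 6 genes of betaine and choline oxidation and uptake tested, 5 fell and 0 rose at each time. Over all genes, 15.8% and 14.5% were lower and 19.9% and 18.9% higher at 24 and 48 h. The medians of the list were -0.79 at 24 h and -0.64 at 48 h. Dmgdh, which takes a methyl group from the dimethylglycine left by the betaine reaction, was at -1.13 ± 0.097 at 24 h and -1.58 ± 0.097 at 48 h (adjusted p = 8.69e-15). Sardh, which does the same for sarcosine, a product of Gnmt among others, was at -1.29 ± 0.083 at 24 h (adjusted p = 3.18e-14) and -0.93 ± 0.083 at 48 h. Aldh7a1, which oxidises betaine aldehyde after Chdh, was at -0.61 ± 0.053 and -0.78 ± 0.053, and the choline transporter Slc44a1 at -0.96 ± 0.11 and -0.37 ± 0.11.

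Of the 7 other methyltransferases tested, 4 fell and 1 rose at each time, where 15.8% and 14.5% of all genes were lower and 19.9% and 18.9% higher at 24 and 48 h. Gamt, which makes creatine, was at -0.92 ± 0.061 at 24 h and -1.84 ± 0.061 at 48 h (adjusted p = 2.08e-21), with 5448 ± 371 in 100 uM wells and 19439 ± 841 in DMSO wells at 48 h. Pcmt1, a protein repair methyltransferase, rose by 0.77 ± 0.084 and 0.83 ± 0.084 at 24 and 48 h. Of the 13 cysteine, taurine and sulfide genes tested, 7 fell and 3 rose at 24 h, and 7 fell and 1 rose at 48 h. Cdo1, which starts the oxidation of cysteine, was at -0.95 ± 0.075 at 24 h (adjusted p = 3.79e-12) and -0.87 ± 0.075 at 48 h.

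The remaining lists had calls in both directions, set against the same shares of all genes. Of the 11 phosphatidylcholine and phosphatidylethanolamine synthesis genes tested, 2 fell and 2 rose at 24 h, and 3 fell and 2 rose at 48 h, with medians of 0.021 and 0.013. Of the 12 S-adenosylmethionine and methionine salvage genes tested, 2 fell and 3 rose at 24 h, and 2 fell and 4 rose at 48 h, with medians of 0.12 and -0.020. Adi1 of the salvage pathway was at -0.43 ± 0.067 and -0.50 ± 0.067, and the spermine synthase gene Sms at 0.74 ± 0.11 and 0.56 ± 0.11. At 3 uM and 24 h, 4 of the 63 genes tested in these 6 lists were called, against 4.22% of all genes in either direction. All 4 were higher (1 of the folate, 2 of the phospholipid and 1 of the cysteine list). At 3 uM and 48 h limma called 0 of the 63, where 0.0391% of all genes were called. An unadjusted p under 0.05 was found for 9 of the 63 at 48 h and for 23 at 24 h. Over all 10222 genes, 521 had such a p at 48 h and 2252 at 24 h.

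**Figure D4:**
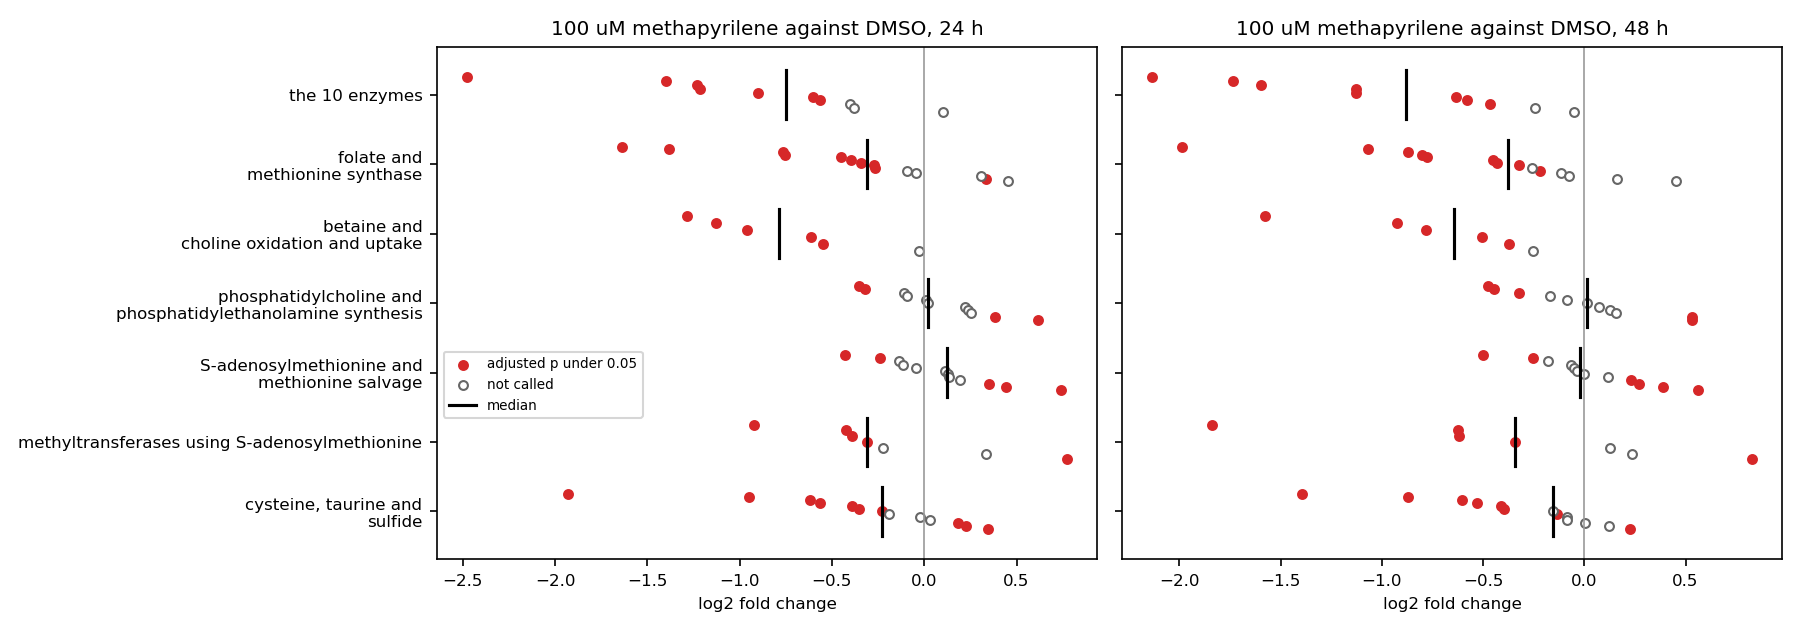
Log2 fold change (x axis) of the tested genes of the 10 enzymes and of 6 related lists (rows) at 100 uM against DMSO, at 24 h (left) and 48 h (right), with filled points for an adjusted p under 0.05 and a black line for each list's median. The medians of the 10 enzymes and of betaine and choline oxidation lie farthest left, and those of the phospholipid and salvage lists lie near 0.

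The genes whose pattern over the 30 arrays was most like that of each member were found by the root mean square difference of log2 values, each gene centred on its own mean. Around Bhmt these were Cyp8b1 of bile acid synthesis, the nuclear receptor Nr1i3 and Ftcd, at differences of 0.21, 0.28 and 0.31, where Bhmt itself varied by 1.06 about its mean. Around Gnmt they were Gamt at 0.19, Fabp1 at 0.21 and Phyhd1 at 0.22, and around Pemt they were Dhrs7l1, Ces1e and Hrg at 0.33 to 0.35. For Bhmt2 they were C5l1, Selenbp1 and Fah, for Mat1a Slc25a10, Nt5e and Fbxo21, for Ahcy Rnase4, Eci2 and Ddt, and for Cth Cyp3a18, Eif4ebp3 and Cyp2f4. For Chdh they were Mthfd1, Kat2b and Ankh at 0.12 to 0.13. Mat2a (Pkn2, Mprip and Cacul1) and Cbs (Mettl15, Vwa1 and LOC100909782) had no close neighbour, since their differences of 0.097 to 0.11 and of 0.27 to 0.28 were near the members' own variation of 0.13 and 0.35. All these genes share the arrays and the 6 groups, so the values are a description.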

How the data were processed

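RNA of 30 wells was measured on rat expression arrays, labelled with biotin. The deposited values are intensity, made by the authors with MAS5 per the submitters' processing notes, whose version is not given in the sources used here. The number of arrays limits the precision. Probe sets were named by the platform annotation: 20826 had 1 symbol, 436 several, 9780 none, and controls numbered 57. The log2 of each value was used as deposited. Probe sets above the median of the array on 5 or more arrays passed the filter, and the brightest of these stood for its gene, which gave 10222 genes. All 30 arrays entered 1 limma 3.58.1 fit in R 4.3.3 with the group as the factor (lmFit, eBayes with a trend, 24 residual degrees of freedom), and two-sided p-values were adjusted by Benjamini-Hochberg over all genes tested. The fit was also tested on simulated data.

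The 10 members, the 6 pathway lists and the marker lists were chosen with earlier results of these data known. That replicates 1 to 3 of 3 uM at 24 h stand apart was also known from earlier work on these data. Named besides the members were up to 4 called genes of each pathway list, by the smaller adjusted p of 100 uM against DMSO at 24 and 48 h, and the 3 genes most like each member. Replicate numbers follow deposition order, and the array numbers in the titles put replicate k of every group in run k. The labels do not say what a run shares, so the run entered as an alternative block and not in the fit above. Alternatives changed the scaling, filter, floor, pseudocount, probe set, variance model, arrays in the fit, array run as a block, a beta-actin covariate, the arrays of 3 uM at 24 h, the thresholds, and each array in turn. No array pair held identical values. Motifs were searched on both strands of RefSeq promoters of build GRCr8. Python 3.11.15 with matplotlib 3.10.9 made the figures.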

Additional observations from a re-analysis of the deposited data

Results flagged for a closer look

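In groups of 5 arrays, 60 sets of member signals were checked for 1 array far from the others, by the gap to its nearest neighbour over the whole range against Dixon's critical value at the 95% level. Chance alone would mark about 1 in 20 such sets, and 2 of 60 were marked. The Pemt signal of replicate 5 in 3 uM wells at 48 h was 586, the lowest of its group, against 1320 to 1570 in the other 4 arrays. The Chdh signal of replicate 1 in 100 uM wells at 24 h was 3349, the lowest of its group, against 4009 to 4250 in the other 4 arrays. The effect of 100 uM on Pemt was called as different between the times, with a 48 h effect minus 24 h effect of -1.22 in limma (adjusted p = 0.0292). As given above, that call was lost when some single arrays were left out.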

How the results depend on the processing

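Over the 10 members in 10 comparisons, 2573 of 2740 alternative values kept their direction and side of the threshold, 50 lost the call, 46 gained one and 71 turned in sign, 3 of these for a called value (Mat2a at 3 uM and 24 h). The counts of members lower at 100 uM against DMSO moved by less than 1.5 times under every alternative run. Asking for all 30 arrays above their median left out Pemt, so no member counts were made with it. The share of all genes called was not counted under the alternatives, so the member counts that follow have no background beside them. For 3 uM against DMSO at 24 h (1 member called), quantile normalization gave 2 and array weights 8. The count was 0 with median centring, no filter, the mean of a gene's probe sets, no trend, only the groups compared, the beta-actin covariate, replicates 4 and 5 alone, an adjusted p under 0.01 or a 1.5-fold threshold, and 0 to 6 with 1 array left out. The 1.5-fold threshold gave 5 in place of 8 for 100 uM against 3 uM at 48 h, 0 in place of 1 for DMSO over time and 2 in place of 6 for 100 uM over time. For the interaction of 100 uM with time (1 called), quantile normalization and the array run as a block gave 2, array weights and only the groups compared gave 3, no trend and an adjusted p under 0.01 gave 0, and leaving out 1 array gave 0 to 2. For that of 3 uM (0 called), array weights gave 6 and leaving out 1 array gave 0 to 1. Of the 71 turned signs, 18 fell on the 61 member results that were followed singly, and these are named below. The rest fell on values that were not called. Signs turned for Mat2a at 100 uM and 48 h with the mean of its probe sets (0.037) or either other probe set (0.21 and 0.12), for Mat2a at 3 uM and 24 h with the same changes (-0.032, -0.21 and -0.32), and for Mat2a at 100 uM against 3 uM at 24 h with the same changes (0.21, 0.37 and 0.57), the beta-actin covariate (0.041) or replicates 4 and 5 alone (0.055). At 3 uM and 24 h, Mat1a turned with the beta-actin covariate (-0.10) and with replicates 4 and 5 alone (-0.23), as did Bhmt2 (0.039), Gnmt (0.099), Cth (0.021) and Chdh (-0.011) with those 2 arrays. Mat2a in DMSO wells over time turned with 1 other probe set (-0.33). Where no value above shows it, the cause was not tested. Deviations from the group means over all genes were also compared between arrays of different groups. They correlated at -0.11 to 0.17 in 75 pairs from the same run (median 0.0012), with 2 pairs over 0.1. In 300 pairs from different runs they correlated at -0.18 to 0.15 (median -0.00031), with 4 pairs over 0.1. Of the 30 arrays, 11 correlated best with their own run among the 5 runs. Whether arrays of a run deviate together was not tested. The array run as a block changed the calls of Pemt at 100 uM and 24 h and of Mat1a in the interaction of 100 uM with time, and no other call of a member.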
